A study of Mus musculus with 12 samples.

Results

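The 8 genes described here, Sox2, Nes, Eomes, Dlx2, Dcx, Sox11, Igfbpl1 and Cd24a, mark the steps from neural stem cell to immature neuron. They were chosen by symbol from the 33024 gene symbols of a count table made from mouse cortex, and all 8 were found in it. RNA was sequenced from 12 C57BL/6 mice of the abstinence arm of a drinking study, 7 in the group labelled Control, which received vehicle (water in both bottles), and 5 in the group labelled EtOH, which chose between water and 20% (v/v) ethanol. Mice of both groups entered at 30 days of age, had 35 drinking sessions of 12 h in the dark and then 14 days of abstinence, and their cortex was frozen after behavioural tests and saline perfusion. The study gives the length of the drinking period in more than one way, and the sex of the sequenced mice is not stated in plain words. Replicates are mice numbered within each group, and the labels do not pair them across groups.

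In the adult mouse brain, new neurons are made mainly from stem cells in the wall of the lateral ventricles, beside the striatum, and in the dentate gyrus of the hippocampus. Quiescent stem cells express Sox2 and Nes, intermediate progenitors of excitatory neurons express Eomes, precursors of inhibitory olfactory bulb neurons express Dlx2, and newborn neurons express Dcx, Sox11, Igfbpl1 and Cd24a. The neocortex itself is not a main site of this process, and several of these genes are also expressed by mature or non-neuronal cells, so bulk cortex RNA cannot assign a gene to a cell. In bulk RNA, fewer cells of a type and less RNA per cell cannot be told apart.

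Total counts ranged from 31768076 to 42183029 per mouse, and 3 counts, taken as the limit of detection, corresponded to 0.0711 to 0.0944 counts per 1e+06 counts (CPM), which covers counting error only. The content of the samples differed between the groups beyond the 8 genes. All 10 markers of striatal projection neurons were called lower in EtOH, with a summed level of 821 to 1812 CPM in Control and 210 to 259 CPM in EtOH, and the smallest p-values were those of Drd2 (log2 fold change -4.97), Rgs9 (-3.13) and Ppp1r1b (-2.63). Of 6 markers of dentate gyrus granule cells, 5 were called higher (summed 36.4 to 52.0 CPM in Control, 57.2 to 166 CPM in EtOH), led by C1ql2 (4.29), Dsp (4.97) and Lct (2.97). Of 5 markers of hippocampal CA neurons, Fibcd1 (2.62), Spink8 (2.14) and Iyd (2.81) were called higher (summed 146 to 242 CPM against 238 to 350 CPM). Dsp and Iyd passed the filter on low counts only through the EtOH mice in which they were high. Their medians in Control were 0.250 CPM for Dsp and 0.0626 CPM for Iyd, the latter near the limit of detection. Of 6 cortical projection neuron markers, Fezf2 was called higher (0.60). With folds under the minimum, Cux2 (0.31) passed the adjusted p as higher and Tbr1 (-0.40) as lower. The sums of the 6, in which Slc17a7 weighs most, overlapped (2204 to 2673 CPM against 2084 to 2650 CPM). All 6 oligodendrocyte markers passed the adjusted p as lower and 2 were called, Mbp (log2 fold change -0.50) and Mobp (-0.52), with a summed level of 4285 to 5703 CPM in Control, 5139 CPM in EtOH 2 and 2872 to 3576 CPM in the other EtOH mice. Choroid plexus markers were summed at 121, 990 and 278 CPM in EtOH 1, 3 and 4, against at most 21.3 CPM in any Control mouse, and 4 of 5 tested were called higher, led by Kl (2.72), Ttr (5.52) and Otx2 (1.92). No marker of any list was at 0 in every mouse. The part of these differences in the results below was not tested.

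Start sites of 6 of the 8 genes were found in the RefSeq promoter table (GRCm38.p6), and the bases before them were matched exactly, at 1 place each, in GRCm39. The stretches of Dlx2, Eomes and Dcx are shown because Dlx2 did not overlap between the groups, Eomes varied most among the Control mice and Dcx alone passed the adjusted p as higher. Igfbpl1 and Cd24a were not among those found. They are written 5′ to 3′ on the strand of the gene, stopping before the first annotated exon base of the gene where one lies within the 250 bases. Capitals mark the motifs searched for, on both strands. The first was CACGTG, the E-box palindrome. The CCAAT box, which reads as ATTGG on the other strand, was searched as well. Another was TATAAA, the TATA box. The Dlx2 stretch is chr2:71377103-71377348 on the minus strand, the Eomes stretch chr9:118307007-118307256 on the plus strand and the Dcx stretch chrX:142716308-142716465 on the minus strand.
Dlx2: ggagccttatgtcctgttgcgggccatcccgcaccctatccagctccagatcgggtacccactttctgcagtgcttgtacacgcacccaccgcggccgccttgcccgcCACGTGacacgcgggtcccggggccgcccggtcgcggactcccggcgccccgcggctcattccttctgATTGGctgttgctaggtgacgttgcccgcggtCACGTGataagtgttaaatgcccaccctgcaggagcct
Eomes: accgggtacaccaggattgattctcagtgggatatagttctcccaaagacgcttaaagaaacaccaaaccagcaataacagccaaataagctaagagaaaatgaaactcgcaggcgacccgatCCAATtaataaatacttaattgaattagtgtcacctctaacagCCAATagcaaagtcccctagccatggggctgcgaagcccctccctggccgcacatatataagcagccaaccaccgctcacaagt
Dcx: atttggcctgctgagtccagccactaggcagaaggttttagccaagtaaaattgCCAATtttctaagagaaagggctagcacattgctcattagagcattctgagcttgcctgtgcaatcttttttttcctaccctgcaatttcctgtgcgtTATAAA
The Dlx2 stretch held CACGTG at 142 and 42 bases before the RefSeq start and CCAAT at 74 bases. Over the 250 bases before the start it had 24 CpG and 66.4% GC, against medians of 6 CpG and 52.4% GC over all promoters of that table. CACGTG was found in 6.02% of the 32851 promoters, and it is 1 form of CANNTG, which 66.2% held. The Eomes stretch held CCAAT at 127 and 84 bases, a motif of 33.8% of promoters, and had 8 CpG and 46.4% GC. The Dcx stretch held CCAAT at 196 bases and TATAAA at 98 bases, the latter found in 12.4% of promoters, and had 3 CpG and 41.6% GC. TAATTA, also searched and held by 4.84% of promoters, was found before Dcx only among annotated exon bases, which are not shown. A match is a description of letters and does not show that a factor binds there.

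Compared per kilobase of merged exons, the members covered a wide range of levels. Sox2 was highest in both groups, at 16.3 ± 1.53 CPM per kilobase in Control (SD, n = 7) and 16.3 ± 0.817 in EtOH (SD, n = 5). In Control mice Dlx2 followed at 3.94 ± 0.430 CPM per kilobase, then Cd24a at 3.10 ± 0.730, Dcx at 3.01 ± 0.293, Sox11 at 2.22 ± 0.333 and Nes at 1.71 ± 0.268. Among these, the ranges over mice did not overlap between Sox2 and Dlx2 or between Dcx and Sox11, and the other neighbours overlapped. Eomes at 0.686 ± 0.711 CPM per kilobase and Igfbpl1 at 0.470 ± 0.0742 were lowest in Control, and the Eomes range spanned that of Igfbpl1. In EtOH mice Dcx came second at 3.60 ± 0.519 CPM per kilobase, then Dlx2 at 2.63 ± 0.454, and Igfbpl1 (0.154 ± 0.0512) and Eomes (0.0339 ± 0.0188) were again lowest, without overlap between those last ones.

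**Figure D1:**
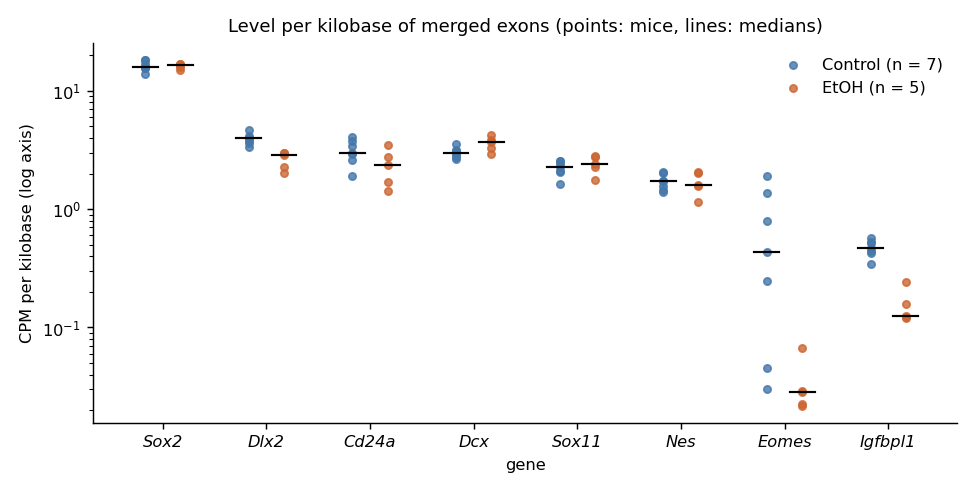
Level of the 8 genes in CPM per kilobase of merged exons, on a log axis, with 1 point per mouse (7 Control, 5 EtOH) and a line at each group's median. Sox2 lies above all other genes in every mouse, and the Eomes values of Control mice spread from 0.0301 to 1.89 CPM per kilobase.

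The question of the comparison was whether these genes differed in cortex after ethanol drinking and abstinence. A gene was called at an adjusted p under 0.05 with a log2 fold change above 0.5 in size (edgeR's quasi-likelihood test, Benjamini-Hochberg adjustment over 16059 genes). Of the 8 genes, Eomes, Igfbpl1 and Dlx2 were called lower in EtOH and 0 were called higher, where 4.09% of all genes tested were called lower and 4.20% higher. Eomes passed the filter on low counts only through the Control mice in which it was high, and without it 2 of the other 7 were called lower. Dcx passed the adjusted p as higher with a fold under the minimum, and 12.1% of all genes did so as higher and 11.6% as lower at any fold. Igfbpl1 and Dlx2 were lower in every EtOH mouse than in every Control mouse, as were 4.96% of all genes, and no member was higher in every EtOH mouse, as 4.84% of all genes were. The median log2 fold change was -0.21 over the 8 genes and 7.21e-05 over all genes tested. Without Eomes the median of the other 7 was that of Nes, -0.02.

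**Figure D2:**
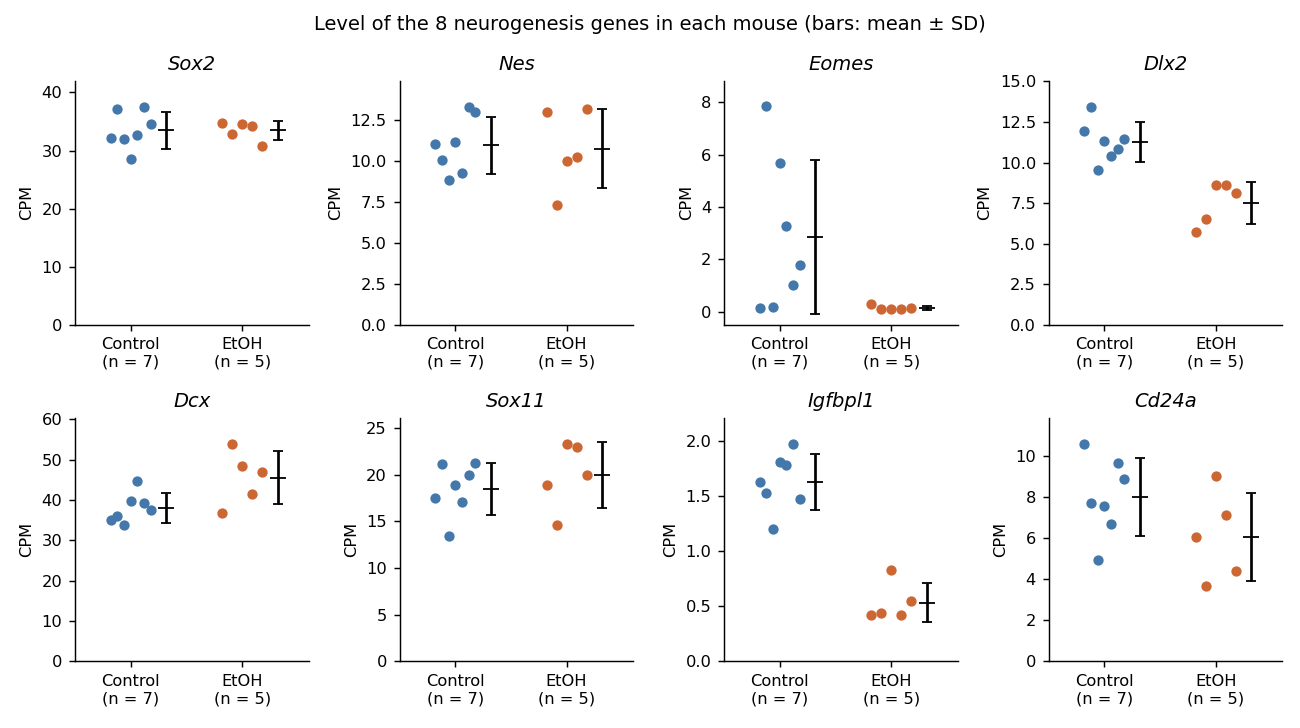
CPM of each of the 8 genes, 1 panel per gene, with 1 point per mouse and the mean ± SD beside each group (7 Control, 5 EtOH). Igfbpl1 and Dlx2 do not overlap between the groups, while Eomes is high in 5 Control mice and near the limit of detection in the other 2 and in all EtOH mice.

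The stem cell genes gave no detectable difference. Sox2, a transcription factor that keeps neural stem cells undifferentiated and that astrocytes also express, lies on chromosome 3 (34704554 to 34706610, plus strand, GRCm39), and the opposite-strand gene Gm64654 overlaps its exon. As the strand setting of the counting is not known, members with such an overlap, which are Sox2, Eomes, Igfbpl1 and Cd24a, are uncertain. Its level was 32.1, 37.2, 31.9, 28.6, 32.6, 37.5 and 34.6 CPM in Control 1 to 7 and 34.8, 32.9, 34.6, 34.2 and 30.8 CPM in EtOH 1 to 5. The EtOH mice lay within the Control range, with a log2 fold change of -0.0011 (95% interval -0.14 to 0.14). Nes encodes nestin, an intermediate filament protein of stem cells that vessel cells also carry, and lies on chromosome 3 (87878385 to 87887758, plus strand). It was at 11.1, 10.1, 8.87, 11.2, 9.26, 13.3 and 13.0 CPM in Control 1 to 7 and at 13.0, 7.34, 10.02, 10.2 and 13.2 CPM in EtOH 1 to 5. The groups overlapped over most of their range, and the log2 fold change was -0.02 (95% interval -0.31 to 0.27). Summed astrocyte markers overlapped too, at 3481 to 4034 CPM in Control and 3704 to 4225 CPM in EtOH, with 0 of 7 called.

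Eomes, the T-box factor also called Tbr2 that intermediate progenitors and olfactory bulb output neurons express, was lower in EtOH but divided the Control mice. It lies on chromosome 9 (118307280 to 118315200, plus strand), with the opposite-strand genes Gm33408 and Gm33460 over its exons. Control 1 to 7 had 4, 257, 6, 182, 134, 32 and 56 counts, or 0.125, 7.87, 0.189, 5.69, 3.27, 1.02 and 1.80 CPM, and EtOH 1 to 5 had 12, 3, 4, 3 and 4 counts, or 0.278, 0.0934, 0.119, 0.0910 and 0.122 CPM. Control 1 and 3 were at the level of the EtOH mice, so the groups overlapped, and the EtOH values were at or a little above the limit of detection. The log2 fold change was -4.25 ± 0.90 (SE, 95% interval -6.14 to -2.36, adjusted p = 0.0025, edgeR). Eomes passed the filter on low counts only through the 5 Control mice in which it was high, and the filter decides whether it is tested. With a filter of at least 1 count in any mouse the log2 fold change was -4.25 (adjusted p = 0.000565, edgeR). With any 1 of Control 2, 4, 5, 6 or 7 left out it was no longer tested, and limma voom gave -3.24 with an adjusted p of 0.104.

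Markers of olfactory bulb mitral cells varied over the same mice. Their summed level was 8.36, 49.6, 9.78, 37.9, 24.8, 18.3 and 18.6 CPM in Control 1 to 7 and 8.51, 6.91, 8.17, 7.34 and 7.30 CPM in EtOH 1 to 5. Control 2 and 4 were highest in both Eomes and this sum, and Control 1 and 3 were lowest among the controls in both. Of the 3 markers, Cdhr1 (log2 fold change -1.67 ± 0.35, SE) and Doc2g (-1.37 ± 0.39) were called lower, and Tbx21, at 0.0631 to 1.78 CPM in Control, did not pass the filter. The genes whose levels were most like Eomes, by Pearson's r of log2 CPM with group means removed over the 12 mice and 14172 genes, were Shisa3 (r = 0.98) and Cdhr1 (r = 0.96). These values share libraries and depth and are a description. Cajal-Retzius cells, whose precursors express Eomes, had summed markers of 75.6 to 111 CPM in Control and 89.7 to 164 CPM in EtOH. Nearly all of this sum was Reln, which was called higher (0.64) and which interneurons also express. Trp73 (0.52, adjusted p = 0.115, edgeR) did not pass, and Lhx5, at a mean of 0.0963 CPM in Control and 0.0336 CPM in EtOH, was not tested. The part of olfactory bulb tissue in the Eomes difference was not tested.

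**Figure D3:**
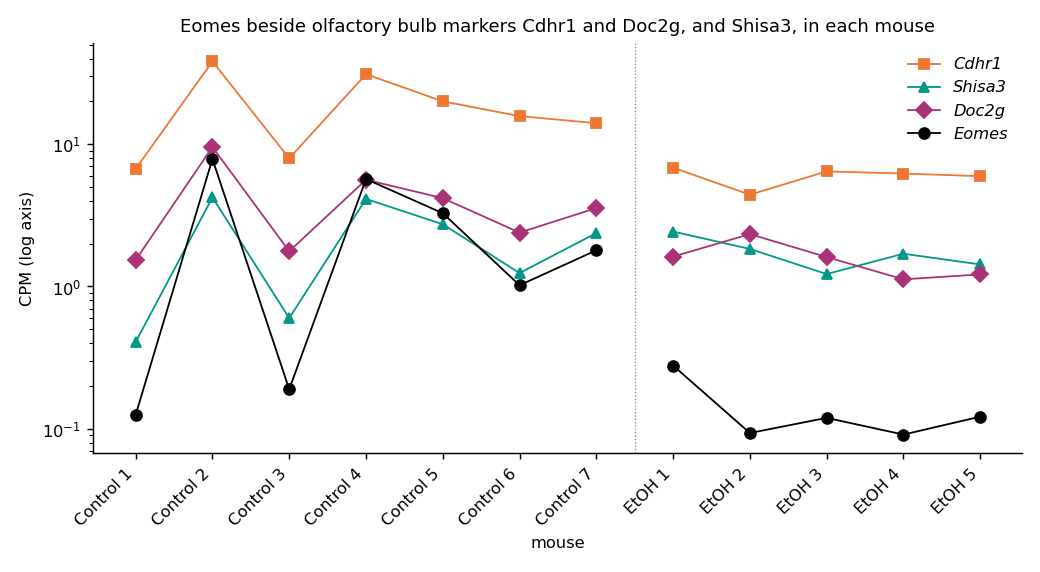
CPM of Eomes, Shisa3 and the olfactory bulb markers Cdhr1 and Doc2g in each of the 12 mice, on a log axis, with lines joining the mice of a group and a dotted line between the groups. All 4 genes are high in Control 2 and 4 and low in Control 1 and 3, while Shisa3 in the EtOH mice stays between 1.22 and 2.43 CPM.

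Dlx2, a homeobox factor of precursors of inhibitory neurons, was lower in EtOH without overlap. It lies on chromosome 2 (71373752 to 71377102, minus strand), with no other gene annotated over its exons. Its level was 11.96, 13.4, 9.53, 11.3, 10.4, 10.8 and 11.4 CPM in Control 1 to 7 and 5.75, 6.53, 8.59, 8.59 and 8.12 CPM in EtOH 1 to 5. Each EtOH mouse was below the lowest Control mouse, and EtOH 1 and 2 were lowest. The log2 fold change was -0.59 ± 0.11 (SE, 95% interval -0.82 to -0.35, adjusted p = 0.00115, edgeR), a mean of 7.51 ± 1.30 CPM in EtOH (SD, n = 5) against 11.3 ± 1.23 CPM in Control (SD, n = 7). Without EtOH 1 the log2 fold change was -0.498 (adjusted p = 0.00401), just under the fold minimum in size, so the call was lost on size. Of 7 genes listed as interneuron markers, Gad2 was called lower (-0.63). Gad1 (-0.31) passed the adjusted p as lower and Adarb2 (0.43) as higher, with folds under the minimum, while Pvalb, Sst, Vip and Lhx6 did not pass. Gad1 and Gad2 are genes of inhibitory neurons in general, striatal projection neurons among them. The summed level of the 7 genes, in which Gad1 and Gad2 weigh most, was 855 to 1120 CPM in Control and 740 to 791 CPM in EtOH. The striatal markers given above moved in the same direction, and their part in the Dlx2 difference was not tested.

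Igfbpl1, which encodes a secreted protein related to the insulin-like growth factor binding proteins and is found in newborn neurons, fell furthest among the members whose groups did not overlap. It lies on chromosome 4 (45809254 to 45826923, minus strand), and an opposite-strand gene, Gm69699, overlaps its exons. Control 1 to 7 had 52, 50, 38, 58, 73, 62 and 46 counts (1.63, 1.53, 1.199, 1.81, 1.78, 1.98 and 1.48 CPM), and EtOH 1 to 5 had 18, 14, 28, 14 and 18 counts (0.417, 0.436, 0.835, 0.425 and 0.547 CPM). The highest EtOH mouse, EtOH 3, was below the lowest Control mouse, Control 3. The log2 fold change was -1.62 ± 0.23 (SE, 95% interval -2.09 to -1.14, adjusted p = 6.07e-05, edgeR). The level is low in both groups, and leaving out any mouse kept the log2 fold change between -1.83 and -1.53.

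Dcx, the microtubule-binding protein doublecortin of migrating and newborn neurons, moved the other way and by little. It lies on chromosome X (142638838 to 142716307, minus strand). Its level was 35.03, 36.0, 33.7, 39.8, 44.8, 39.3 and 37.5 CPM in Control 1 to 7 and 36.9, 53.9, 48.5, 41.5 and 47.0 CPM in EtOH 1 to 5. EtOH 2, 3 and 5 were above all Control mice, and EtOH 1 and 4 lay within the Control range. The log2 fold change was 0.26 ± 0.09 (SE, 95% interval 0.08 to 0.44, adjusted p = 0.0387, edgeR), under the fold minimum, so Dcx was not called. The adjusted p rose to 0.05 or above with 8 of the 12 mice left out in turn (Control 1, 2, 3, 4 and 7, EtOH 2, 3 and 5), reaching 0.123 without EtOH 2. Over all alternatives the log2 fold change lay between 0.186 and 0.402, and the highest value, with an adjusted p of 0.0212, was without EtOH 1, 3 and 4.

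Sox11 and Cd24a did not pass the test. Sox11, a transcription factor of immature neurons, lies on chromosome 12 (27384263 to 27392573, minus strand) and was at 17.5, 21.2, 13.4, 18.9, 17.1, 20.03 and 21.3 CPM in Control 1 to 7 and 18.9, 14.7, 23.3, 23.0 and 19.9 CPM in EtOH 1 to 5. The log2 fold change was 0.11 (95% interval -0.14 to 0.36), and 2 EtOH mice were above all Control mice. Cd24a, a surface glycoprotein of migrating neuroblasts that ependymal cells also carry, lies on chromosome 10 (43454280 to 43460264, plus strand), with the opposite-strand gene Mtres1 over its exons. It was at 10.6, 7.69, 4.96, 7.56, 6.69, 9.63 and 8.85 CPM in Control 1 to 7 and 6.05, 3.67, 9.004, 7.10 and 4.41 CPM in EtOH 1 to 5. The groups overlapped, and the log2 fold change was -0.40 (95% interval -0.83 to 0.03, adjusted p = 0.163, edgeR). Without EtOH 3 it was -0.59 with an adjusted p of 0.0456, so whether it was called turned on that mouse. The summed ependymal markers were at 11.6 to 16.4 CPM in Control and 6.66 to 15.4 CPM in EtOH, with 0 of 6 tested called. A near copy of the Cd24a transcript lies on chromosome 14 (119881406 to 119887036), where 1517 of 1741 aligned bases matched (87.1%), so its counts are uncertain.

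The other genes of the pathway were read from 4 lists. Of 49 listed genes that were tested, 6 were called higher and 7 lower, 12.2% and 14.3%, against the shares of all genes given above. The lists were chosen with earlier results of these data known. Exons of another gene overlap those of Hopx, Id4, Neurod1, Top2a, Dpysl3, Dlx6, Sp9 and Prox1, whose counts are uncertain. The overlap is on the same strand for Top2a, on both strands for Neurod1 and on the opposite strand for the others. Their median log2 fold changes were 0.11 for stem cell and radial glia genes, 0.0067 for intermediate progenitor and dividing precursor genes, -0.22 for neuroblast and immature neuron genes and -0.11 for the doublecortin family and its microtubule partners.

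Among 15 stem cell and radial glia genes tested, 3 were called higher and 1 lower. At any fold, 3 passed the adjusted p as higher and 5 as lower. Gfap, the intermediate filament of astrocytes and adult stem cells, was 88.3 ± 15.5 CPM in Control and 150 ± 13.3 CPM in EtOH (SD; log2 fold change 0.77). Hopx, a homeodomain protein of quiescent stem cells and astrocytes, had a log2 fold change of 0.60, and both were higher in every EtOH mouse than in every Control mouse. Id4, an inhibitor of proneural factors, was the gene called lower (-0.54), a call lost on size without Control 2 (-0.498) or Control 6 (-0.489). Among 8 intermediate progenitor and dividing precursor genes, Neurod1, a factor of differentiating excitatory neurons, was called higher (0.88) and Top2a, a topoisomerase of dividing cells, lower (-1.14), and Mki67, another gene of dividing cells, had a log2 fold change of -0.21 that did not pass.

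Among 18 neuroblast and immature neuron genes, 4 were called lower and 2 higher. At any fold, 7 passed the adjusted p as lower and 7 as higher, against 11.6% and 12.1% of all genes. The groups did not overlap for 7 as lower and 3 as higher, against 4.96% and 4.84% of all genes. The 4 called lower were the homeobox factors Dlx5 (-1.10) and Dlx6 (-1.46) and the zinc finger factors Sp8 (-1.77) and Sp9 (-1.13). All are factors of inhibitory neuron precursors, and each was lower in every EtOH mouse than in every Control mouse. Sp8 was at 2.72, 11.2, 2.49, 8.19, 5.74, 5.80 and 6.48 CPM in Control 1 to 7, high in Control 2 and 4 and low in Control 1 and 3 as Eomes was. Prox1, a homeobox factor of dentate granule cells that is also among the dentate markers above, was called higher (1.29), and Dpysl3, a protein of growing axons, was called higher at 0.56. With EtOH 1, 3 and 4 left out, which held the most choroid plexus markers, Dpysl3 (0.39) and Hopx (0.42) were no longer called. Dlx1, the neighbour and partner of Dlx2 in precursors of inhibitory neurons, had a log2 fold change of -0.22 that did not pass. Among 8 genes of the doublecortin family and its microtubule partners, Dclk3, a doublecortin-like kinase, was called lower (53.7 ± 6.32 CPM in Control, 21.7 ± 3.86 CPM in EtOH, SD; log2 fold change -1.30). Dclk1 (-0.10) and Dclk2 (0.09), its relatives, did not pass. At any fold, 3 of these 8 genes passed the adjusted p as lower and 1 as higher. Control 7 was the lowest Control mouse in Dclk3 (41.1 CPM) and in the summed striatal markers (821 CPM). The striatal markers also moved in the same direction, and their part in the Dclk3 difference was not tested.

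**Figure D4:**
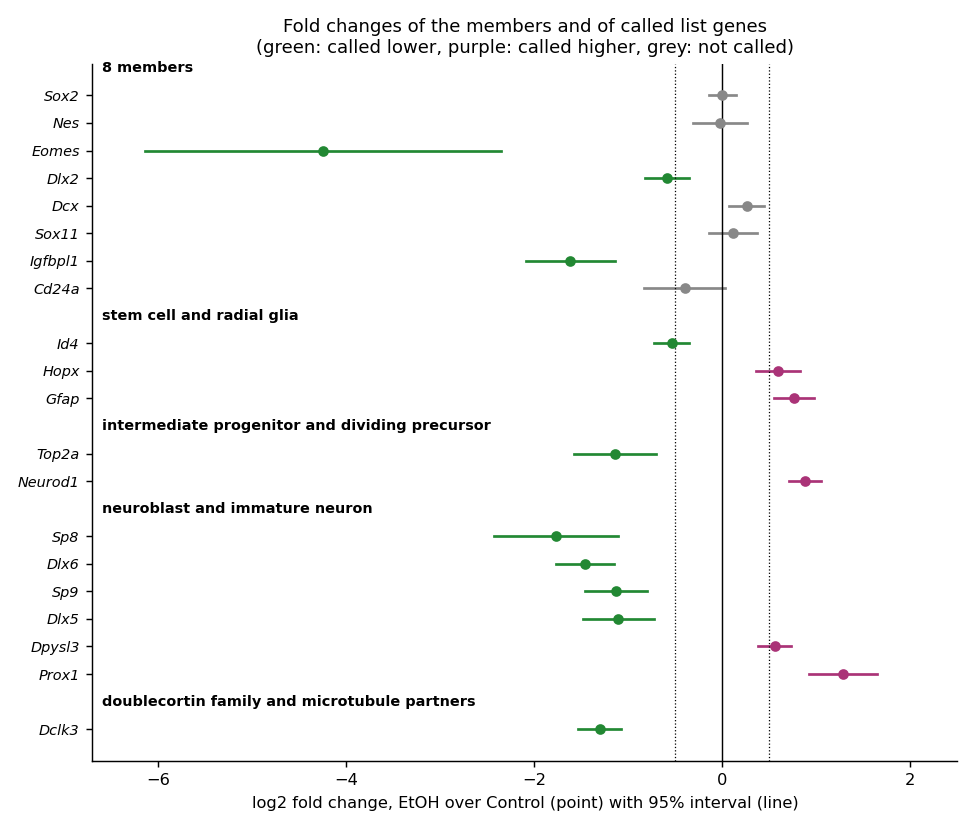
Log2 fold change of EtOH over Control (point) with its 95% interval (line) for the 8 members and for the called list genes that are reported here, by role. Dotted lines mark the fold minimum of 0.5 in either direction, and the Eomes interval, -6.14 to -2.36, is the widest.

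**Figure D5:**
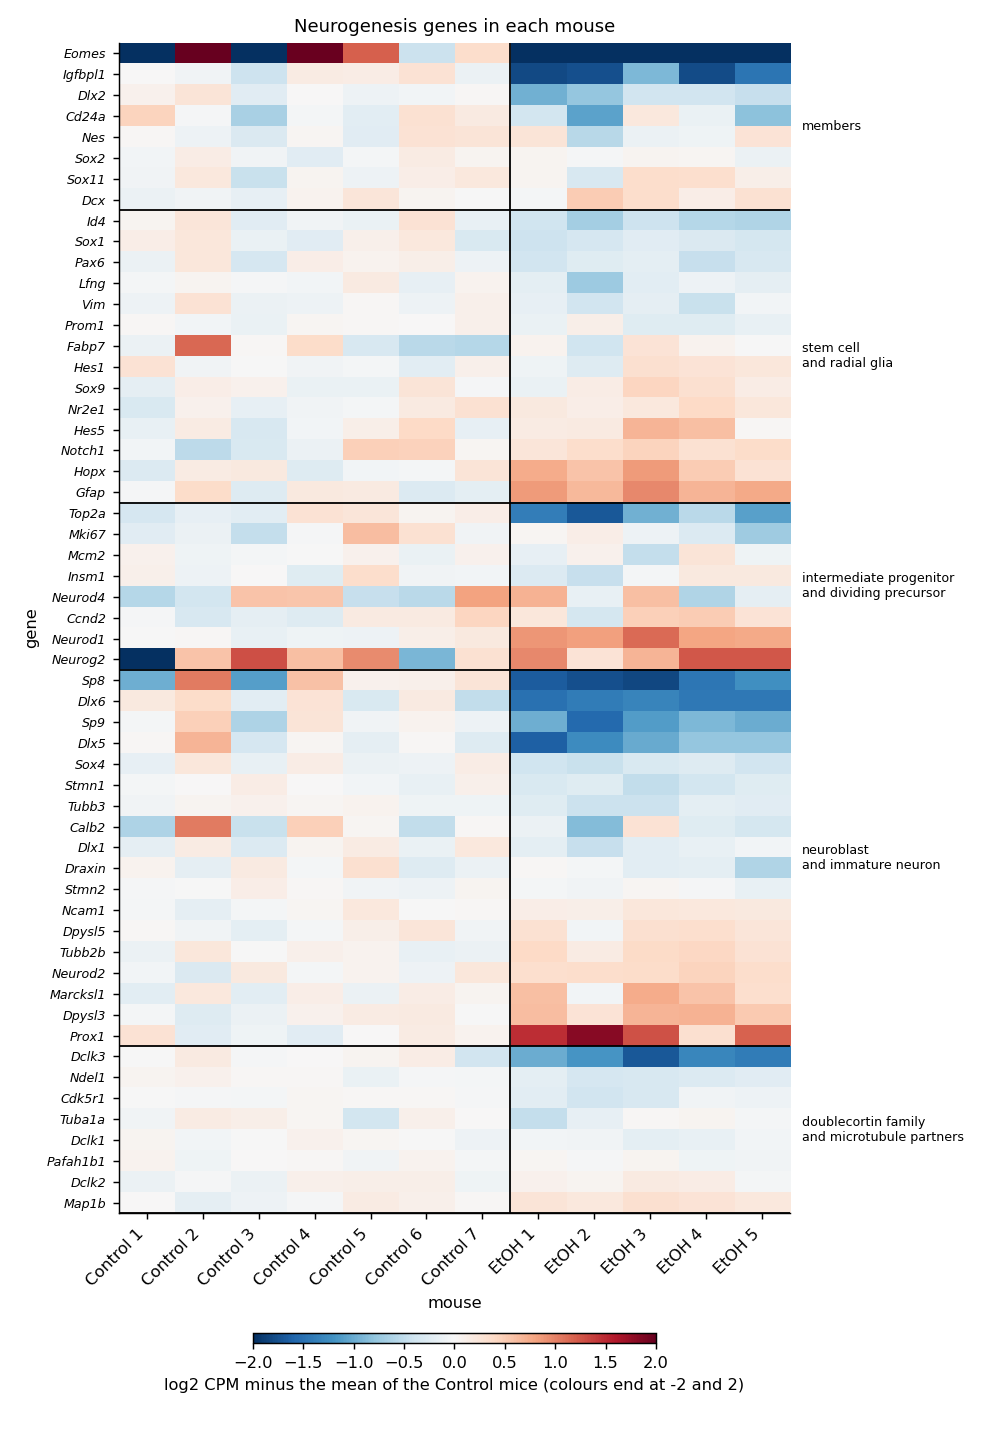
Log2 CPM of the members and of the listed genes reported here minus the mean of the Control mice, with 1 column per mouse and colours that end at -2 and 2. Eomes and Sp8 vary among the Control mice, while Dlx6 and Dclk3 are low in all 5 EtOH mice.

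For the other members, the genes most alike in pattern, by the same measure, were Tlr3 (r = 0.91) for Dcx, Tmem119 (0.93) for Sox11, Lpp (0.88) for Igfbpl1, Ptpn12 (0.92) for Nes, Triqk (0.90) for Sox2, Ndc1 (0.94) for Cd24a and Rprd1b (0.92) for Dlx2. The second of each were Klhl20 (0.87), Cnot3 (0.90), Fbxl14 (0.87), Spred2 (0.91), Abhd11 (0.85), Cnot4 (0.93) and C9orf72 (0.91) in the same order. These are the highest of 14172 values for each member over 12 mice, and they say nothing of shared function.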

How the data were processed

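Cortex RNA of 12 mice (7 Control, 5 EtOH) was measured. The authors had libraries sequenced by BGI (DNBSEQ), checked reads with FastQC 0.11.9, aligned them to GRCm39 with STAR and a Gencode annotation, counted them with featureCounts, and tested with DESeq2; strand and multi-mapping settings are not given in the sources used here. The authors deposited 1 table of expected counts per gene symbol, without normalization. In it, 61 of 33024 symbols held values that were not whole, none of them a member, and 0 columns were unmatched. Counts were rounded to whole numbers, with values midway between them going to the even number.

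Genes were kept with filterByExpr (16059), scaled by TMM (factors 0.982 to 1.02) and tested with edgeR 4.0.16 (quasi-likelihood, R 4.3.3), with Benjamini-Hochberg adjustment over all genes kept. CPM use the TMM-scaled totals of those genes. The standard error is the log2 fold change over the square root of F. The fit was tested on simulated data. Within a group, chi-square per degree of freedom between any 2 mice was at least 7.49, so no pair agreed within sampling noise. P-values weigh the difference between the groups against the spread between mice.

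The members and lists were chosen with earlier results of these data known. Named were all members, list genes called (at most 8 a list), markers called (at most 3 a list) and the 2 genes most like each member; other markers and list genes that were not called, such as Mki67 and Adarb2, were named after their values were seen. A listed gene that the rule selects is not reported here by name but stays in the counts. Positions are from Gencode M39 on GRCm39, newer than the authors' annotation, and copies were sought with minimap2 2.31. Alternatives were DESeq2 1.42.0, limma 3.58.1 voom, other scalings, filters and fold minimums, a replicate block, each mouse left out, and 5 settings chosen after seeing the data.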

Additional observations from a re-analysis of the deposited data

Results flagged for a closer look

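Of 74 comparisons of the highest and lowest mouse of a group with the rest, 7 stood apart by Dixon's test, where chance gives about 1 in 20, or 3.7. Eomes in EtOH 1 was at a log2 CPM of -1.57, with the next EtOH mouse at -2.47, a difference that rests on 12 counts. Dlx5 in Control 2 was at a log2 CPM of 3.91, above the next Control mouse at 3.28. Dclk3 in Control 7 was at 5.36, below the next at 5.72. The summed endothelium and pericyte markers of EtOH 2 were at a log2 CPM of 8.16, with the next at 8.03. The summed blood markers of Control 6 were at 6.95, with the next at 4.32. Total counts were 40690223 in Control 5, with the next at 32356913, and 42183029 in EtOH 1, with the next at 33313165.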

How the results depend on the processing

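Over the alternatives, 2 to 4 members were called lower, and no called result reversed. Sox2, Nes and Sox11, which were not called, changed sign under some alternatives, over -0.0797 to 0.0458, -0.135 to 0.0785 and -0.101 to 0.197. Without a fold minimum, 1 member was called higher (Dcx, log2 fold change 0.26), and 16 list genes were called lower and 12 higher; with a minimum of 1, Dlx2 (-0.588) was not called and 1 list gene was called higher. Eomes lost its call with limma voom (-3.24, adjusted p = 0.104) and with EtOH 1, 3 and 4, rich in choroid plexus markers, left out (-4.69, adjusted p = 0.0825). It was not tested without Control 2, 4, 5, 6 or 7, without Control 2 and 4 together, or with at least 10 counts asked of every mouse. With those 3 mice left out, Cd24a was called (-0.988) and 4 list genes were called higher in place of 6, with Hopx (0.417) and Dpysl3 (0.386) lost. With each mouse left out in turn, Cd24a ranged from -0.587 to -0.274 and Dlx2 from -0.641 to -0.498. The Dlx2 value without EtOH 1, -0.498, was -0.502 and called when midway values were rounded up instead of to even, and this rounding with all mice kept changed no call of a member. This rounding and the settings that leave out several mice were chosen after seeing the data. Over all genes, leaving out EtOH 1, 3 and 4 gave 397 called higher and 466 lower, and a minimum of 1 gave 242 and 282, against 674 and 657. Mice with the same number correlated at -0.131 to 0.063, against a median of 0.0105 for mice with different numbers. No pairing by number was seen, but these correlations cannot exclude a shared litter or cage. The fit with the replicate block called 3 members lower (Dlx2 -0.599, Eomes -3.88, Igfbpl1 -1.60) and 690 genes higher and 634 lower. Depth limits Eomes and Igfbpl1, whose EtOH counts were 3 to 12 and 14 to 28.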
